A study of Mus musculus with 20 samples.

Results

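The transcripts described here come from the imprinted Dlk1-Meg3 region of mouse chromosome 12. Of the 55421 transcripts in the deposited tables, 93 start on the plus strand (mm10) in a window that opens just before the start of Dlk1 (109452849) and closes just after the end of Mirg (109749458), and all of them were taken. They comprise 7 long transcripts (Dlk1, Gm27528, Meg3, Rian, Gm37899, B830012L14Rik and Mirg), 59 microRNA transcripts, 23 small nucleolar RNA (snoRNA) transcripts and 4 other short ones. The 20 RNA libraries divide into 10 from KY1.1 mouse embryonic stem cells (ESC) and 10 from colonies of induced presomitic mesoderm (iPSM), made from E14TG2a stem cells that were grown without feeder cells. All iPSM lines carried luciferase under the Hes7 promoter, and the label "control" is the only genotype given for the remaining line of each cell type. The tetO-Clock/Bmal1 lines hold Clock and Bmal1 (the mouse gene Arntl) under a doxycycline-inducible promoter, and the tetO-Clock/Bmal1DN lines hold Clock with a dominant-negative Bmal1. Doxycycline (dox) was given at 500 ng/mL over 6 hours to ESC and at 1000 ng/mL over 2 hours to iPSM, and every line also gave an untreated library. The Clock/Bmal1 lines were clones 1 and 7 in ESC and 12 and 20 in iPSM. The Clock/Bmal1DN lines were clones 5 and 6 in ESC and 7 and 19 in iPSM. Each line is 1 clone and the control line gave 1 library per treatment, so what the construct did and what is particular to a clone cannot be told apart in untreated cells.

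The region is a textbook imprinted domain. Dlk1, a transmembrane protein with repeats like those of Notch ligands, is expressed from the paternal chromosome and is known for roles in embryonic mesoderm, muscle and fat precursors. Meg3, Rian and Mirg are noncoding RNAs expressed in the same direction from the maternal chromosome, and many snoRNAs and microRNAs are processed from this transcription. The level of these maternal RNAs is known to vary among cultured mouse pluripotent lines. Clock and Bmal1 are partner transcription factors of the circadian clock that bind E-box DNA.

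The starts of Dlk1 and Meg3 are shown because these neighbours, transcribed from the same strand, gave different values below. Each line gives the 250 bases before the RefSeq start (GRCm38.p6, plus strand), at chr12:109452573-109452822 for Dlk1 and chr12:109540746-109540995 for Meg3. Capitals mark TGACGTCA, the cAMP response element, and the TATA-box letters TATAAA.
Dlk1: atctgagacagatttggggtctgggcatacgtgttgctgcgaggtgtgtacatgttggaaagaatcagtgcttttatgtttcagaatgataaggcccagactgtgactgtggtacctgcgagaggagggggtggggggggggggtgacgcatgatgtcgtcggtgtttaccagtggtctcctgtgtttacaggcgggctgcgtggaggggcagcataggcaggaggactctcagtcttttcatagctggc
Meg3: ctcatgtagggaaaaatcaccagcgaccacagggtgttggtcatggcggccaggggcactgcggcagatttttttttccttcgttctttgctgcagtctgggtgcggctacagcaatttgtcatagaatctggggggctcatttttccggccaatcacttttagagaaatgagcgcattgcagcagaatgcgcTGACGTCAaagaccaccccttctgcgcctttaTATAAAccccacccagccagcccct
The Dlk1 stretch contains 8 CpG dinucleotides and the Meg3 stretch 10. The E-box letters CACGTG, the variant CACGTT and the general form CANNTG were searched on both strands over 300 bases, 250 before and 50 after the start. None of them occurs in the windows of Dlk1 or Meg3. Among all 32851 promoter windows of that length, 7.2% hold CACGTG, 4.7% CACGTT and 72.3% CANNTG, which overlaps the other forms. TGACGTCA lies in 1.8% of windows and TATAAA in 13.6%, and the Meg3 window has both, at positions -57 and -25 from the start, while the Dlk1 window has neither. These are letter matches in a short window and say nothing about binding elsewhere.

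Mature microRNA sequences matched 57 of the 59 microRNA transcripts in RefSeq. They gave 106 arms with 97 different seeds (bases 2 to 8, in capitals). Pairs of differently named arms shared 8 of these seeds, and miR-3070-5p was given by both Mir3070a and Mir3070b. The first 3 sequences belong to the microRNA transcripts with the most reads here, and the rest show pairs that share a seed.
miR-1906: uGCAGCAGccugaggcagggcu
miR-433-5p: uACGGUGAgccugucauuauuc
miR-433-3p: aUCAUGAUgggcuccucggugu
miR-3070-3p: uGGUGCUAccgucagggguaga
miR-3070-2-3p: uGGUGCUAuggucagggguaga
miR-379-5p: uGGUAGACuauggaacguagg
miR-1193-5p: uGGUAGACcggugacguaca
miR-379-3p: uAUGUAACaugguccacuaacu
miR-411-3p: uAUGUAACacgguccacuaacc
miR-379 shares 1 seed with miR-1193 and another with miR-411. Total-RNA libraries do not capture the mature forms, so the counts below are reads over the hairpin's stretch of the genome.

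Library totals, in M (mega) counts, ran from 40.3 M to 57.3 M in ESC and from 38.2 M to 47.8 M in iPSM. Levels are given as CPM, counts scaled per M counts, on 1 TMM scale for all 20 libraries. With dox, Arntl reached 1737 to 4523 CPM in the transgenic ESC lines, from 46.8 to 58.5 untreated, and 142.6 to 4282 in the iPSM lines, from 39.0 to 72.1. In the control lines it lay at 41.3 and 42.5 CPM in ESC and 18.8 and 18.1 in iPSM. The summed level of 8 pluripotency genes was 1780 to 2537 CPM in ESC and 214.5 to 432 in iPSM. That of 8 presomitic mesoderm genes was 20.0 to 61.7 CPM in ESC and 745 to 1451 in iPSM, so both sets of markers matched the labels. Fibroblast markers (12 genes) summed to 167 to 1440 CPM in ESC and 80.7 to 103 in iPSM. The untreated iPSM control library stood apart from the others, with a TMM factor of 1.239 against 0.873 to 1.107 elsewhere, and reads in 69.4% of all transcripts, more than in any other library (52.4% in the dox-treated control library of iPSM). These are bulk samples, in which fewer cells of a type and less RNA per cell cannot be told apart.

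Dlk1 (chr12:109452849-109463336, the protein-coding gene of the region) rose about 32-fold when Clock and Bmal1 were induced, in both cell types and in all 4 clones. In ESC it went from 0.273 to 10.6 CPM in clone 1 and from 0.399 to 11.5 CPM in clone 7. In iPSM it went from 0.531 to 16.04 CPM in clone 12 and from 0.868 to 28.2 CPM in clone 20. The treated Clock/Bmal1 libraries lay above every other library of their cell type, with no overlap. In the Clock/Bmal1DN lines Dlk1 moved from 0.8001 to 0.352 CPM in ESC clone 5 and from 0.964 to 2.60 CPM in ESC clone 6. It moved from 0.763 to 0.491 CPM in iPSM clone 7 and from 0.632 to 1.23 CPM in iPSM clone 19, so the clones of this construct went in opposite directions in each cell type. In the control lines it was at 0.144 CPM untreated and 0.533 CPM with dox in ESC, from 6 and 23 counts, and at 1.78 and 1.27 CPM in iPSM.

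**Figure D1:**
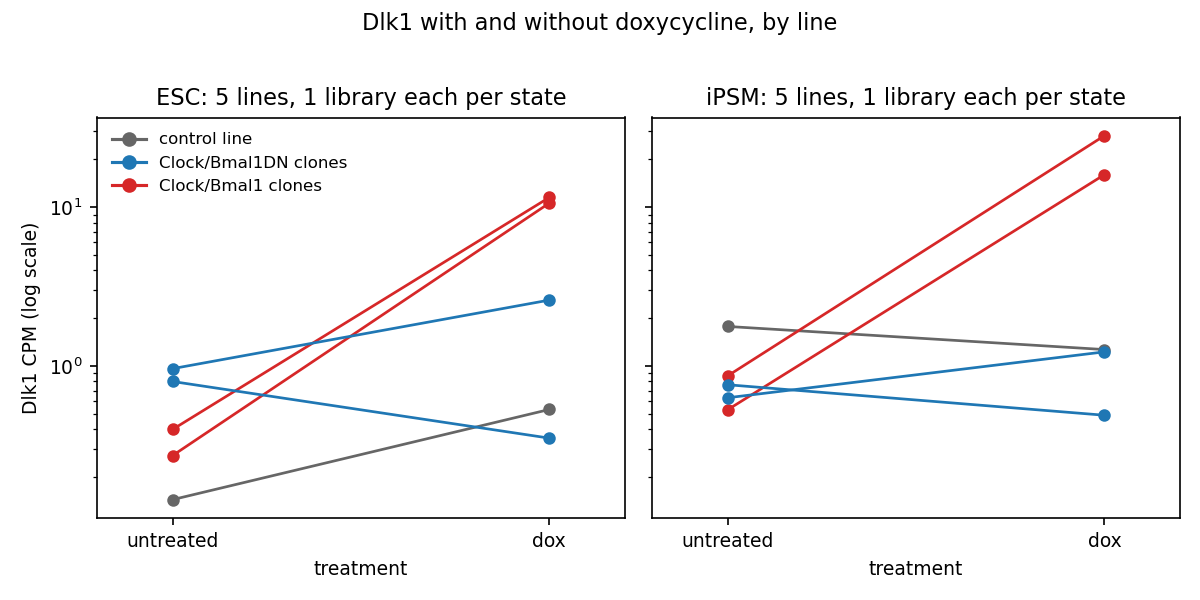
Dlk1 level (CPM, log scale) in untreated and dox-treated libraries, with 1 line per control line or clone; ESC on the left and iPSM on the right. The 4 Clock/Bmal1 clones rise to between 10.6 and 28.2 CPM, and every other library lies at or under 2.60 CPM.

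By edgeR's quasi-likelihood test over all transcripts, the rise of Dlk1 was 5.00 ± 0.78 on the log2 scale (SE, n = 2 clones per group, 32.0-fold) in ESC, with a Benjamini-Hochberg adjusted p of 0.0316. In iPSM it was 5.02 ± 0.46 (32.3-fold), with an adjusted p of 0.000344. Dlk1 was the only one of the 46 tested transcripts of the region called in ESC, where 0.422% of all 22500 tested transcripts were called, and the only one of 66 in iPSM, where 1.02% of 24805 were. It ranked 14th by size among the 91 ESC rises and 29th among the 247 iPSM rises. The effects differed between the cell types by -0.04 ± 0.79, iPSM minus ESC (adjusted p 1.0), although dose and time differed too. The ESC call rests on both clones, since leaving out any 1 of the 4 Clock/Bmal1 libraries raised the adjusted p to between 0.0786 and 0.322 while the log2 value stayed between 4.74 and 5.31.

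With the dominant-negative form the log2 change of Dlk1 was 0.70 ± 0.69 in ESC (adjusted p 0.989) and 0.31 ± 0.46 in iPSM (adjusted p 1.0). No transcript of the region was called in either Clock/Bmal1DN comparison, where 0.00444% and 0.00403% of all transcripts were called. At an unadjusted p under 0.05 edgeR counted 0 in both, and DESeq2 called 0. The Clock/Bmal1 effect on Dlk1 exceeded the Clock/Bmal1DN effect by 4.70 ± 0.63 in iPSM (adjusted p 0.0124), where 0.278% of all transcripts were called for this difference. In ESC it exceeded it by 4.30 ± 1.01 (adjusted p 0.369), with 0 of the 46 transcripts of the region and 0.0578% of all called. At an unadjusted p under 0.05 this was 1, and DESeq2 called 1, Dlk1. The iPSM call was lost (adjusted p 0.0567 to 0.0766, log2 4.18 to 4.84) without dox clone 20, without either library of Clock/Bmal1DN clone 7 or without untreated Clock/Bmal1DN clone 19. Among dox libraries alone, Clock/Bmal1 exceeded Clock/Bmal1DN by 4.71 ± 0.45 in iPSM (adjusted p 0.000446, with Dlk1 the only one of 66 called, against 1.41% of all) and by 2.91 ± 0.69 in ESC (adjusted p 0.154). The ESC value rose to 4.95 and passed (adjusted p 0.0489) without dox Clock/Bmal1DN clone 6, and it also passed with DESeq2 (2.92, 0.000148) and without the filter on low counts (2.91, 1.86e-08). The induced Arntl level also differed between these lines, at 2966 and 4282 CPM in the dox-treated Clock/Bmal1 iPSM clones and 828 and 142.6 CPM in the Clock/Bmal1DN ones. In ESC it was 2414 and 4523 against 1737 and 4466 CPM, and the part of this level in the Dlk1 difference was not tested.

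None of the 5 long noncoding RNAs was called with dox. In ESC with induced Clock and Bmal1, the log2 changes were 0.77 ± 0.54 for Meg3, -0.05 for Rian, 0.07 for Gm37899, 0.05 for B830012L14Rik and -0.20 for Mirg. In iPSM they were -0.11 ± 0.17 for Meg3, -0.03 for Rian, 0.19 for Gm37899, -0.06 for B830012L14Rik and -0.03 for Mirg. With the dominant-negative form, Meg3 was at 0.49 ± 0.51 in ESC and 0.07 ± 0.17 in iPSM, neither of which passed. Meg3 lies 88.156 kb downstream of the start of Dlk1, Rian 151.126 kb and Mirg 276.915 kb.

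The noncoding RNAs instead separated the untreated and treated ESC libraries by line. Meg3, Rian, Gm37899, B830012L14Rik and Mirg were all lower in the 4 Clock/Bmal1 libraries than in each of the 6 other ESC libraries, by 8.59-fold (Meg3) to 21.3-fold (Mirg) between the means. The 10 iPSM libraries showed no such split.

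Meg3 (chr12:109541005-109571721), the noncoding RNA nearest to Dlk1, was at 1.53 and 2.50 CPM in clone 1 and at 2.85 and 5.16 CPM in clone 7, untreated and with dox. It was at 19.7 and 14.1 CPM in the control line, 23.6 and 17.6 in Clock/Bmal1DN clone 5, and 26.0 and 54.02 in clone 6. The lowest of the 6 other libraries was thus above the highest Clock/Bmal1 library.

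Rian (chr12:109603975-109661716), host of snoRNAs, was at 22.6 and 22.4 CPM in clone 1 and at 51.1 and 50.8 CPM in clone 7. In the control line it was at 227 and 245 CPM, in clone 5 at 403 and 404, and in clone 6 at 572 and 567. The libraries of 1 line lay close together with and without dox, and each line had its own level.

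Gm37899 (chr12:109668869-109677585), annotated only as a region to be experimentally tested, ran from 0.430 to 0.893 CPM in the Clock/Bmal1 libraries and from 4.94 to 19.7 CPM in the others. B830012L14Rik (chr12:109678088-109714212), a long noncoding RNA that spans both snoRNA and microRNA transcripts, was at 2.44 and 2.98 CPM in clone 1 and at 3.30 and 3.07 CPM in clone 7. In the control line it was at 29.8 and 27.1 CPM, in clone 5 at 46.9 and 47.6, and in clone 6 at 66.2 and 62.7. Both transcripts showed the split with no overlap.

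Mirg (chr12:109729764-109749458), the host of the distal microRNA cluster, was at 4.003 and 3.34 CPM in clone 1 and at 6.50 and 6.05 CPM in clone 7. It was at 64.7 and 77.7 CPM in the control line, 104 and 113 in clone 5, and 141 and 134 in clone 6. Of the 5 long noncoding RNAs, Mirg had the widest gap between the lines. Gm27528, between Dlk1 and Meg3, had at most 0.161 CPM in any library and was not tested.

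**Figure D2:**
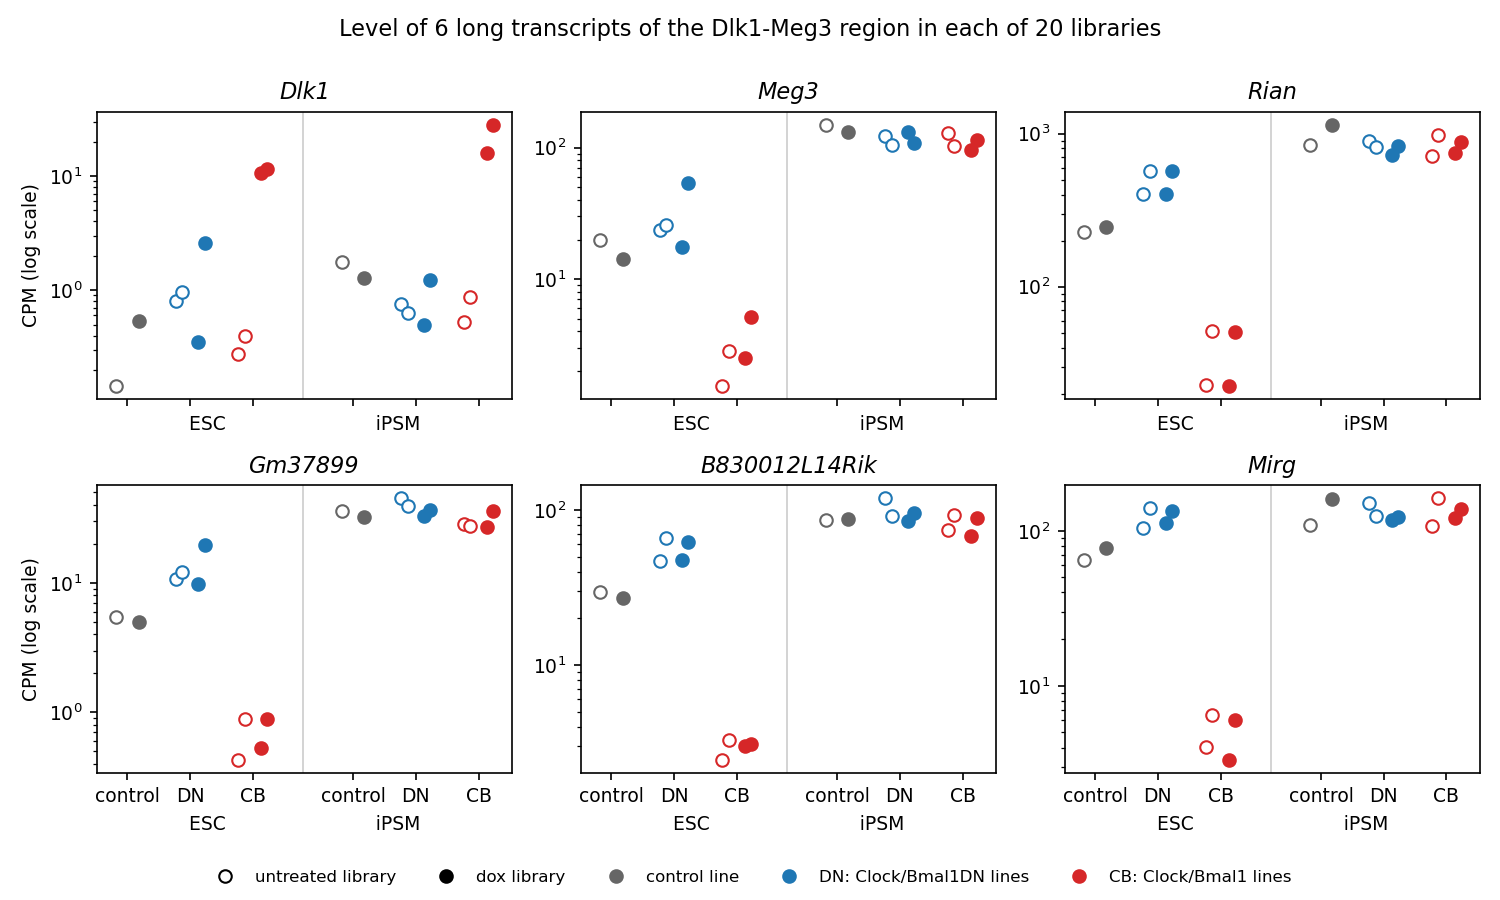
Level (CPM, log scale) of 6 long transcripts in each of the 20 libraries, by cell type and kind of line; open points are untreated and filled points dox-treated. The 5 noncoding RNAs are low in the 4 Clock/Bmal1 ESC libraries and similar across the iPSM lines, while Dlk1 is high only in the treated Clock/Bmal1 libraries among those drawn.

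Reads over the 5 long noncoding RNAs made up 28.2 to 60.4 of every M raw counts in the Clock/Bmal1 ESC libraries and 322 to 798 in the other ESC libraries. In iPSM they made up 1153 to 1579 of every M. Across the whole region, 43 of 93 transcripts were lower in all 4 Clock/Bmal1 libraries than in all 6 others, and 0 were higher. They were 5 long, 23 microRNA, 14 snoRNA and 1 other short transcript. Many of the short ones lie inside a long one and may share its reads, so the 43 are not separate observations. Among the tested transcripts this held for 37 of the 46 in the region, against 0.711% of all 22500 that were lower and 0.467% that were higher in this way. The other 47 transcripts had too few reads to be tested, some of the 46 may have passed that filter only through the libraries where they were high, and the groups in this count are lines, so it carries no p.

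Only 2 transcripts among all 22500 tested passed in untreated Clock/Bmal1 against untreated Clock/Bmal1DN ESC (0.00889%), and both belong to this region. B830012L14Rik was lower by 19.9-fold (log2 -4.31 ± 0.29, edgeR adjusted p 0.00217) and Mirg by 23.5-fold (log2 -4.56 ± 0.37, adjusted p 0.00522). At an unadjusted p under 0.05, 39 of the 46 passed, with 358 of all transcripts. Gm37899 was at -4.12 ± 0.49 (adjusted p 0.0942), Rian at -3.73 ± 0.49 (0.160) and Meg3 at -3.51 ± 0.57 (0.427), and these did not pass. The median log2 difference over the 46 tested transcripts was -4.14 as fitted and -3.52 with the 12 transcripts that had a group at 0 set at their bound, beside -0.013 over all transcripts. The bound takes 3 counts over the group in place of 0. A further 17 of the 46 had 1 to 3 counts in a group. Some may have passed the filter on low counts only through the libraries where they were high. Nothing is therefore read from the count of 39 or from these medians. Without untreated clone 1, Mirg no longer passed (log2 -4.24, adjusted p 0.0560).

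In dox-treated ESC the same contrast called 9 of the 46 transcripts, all lower, against 0.0889% of all transcripts called lower. Beside B830012L14Rik (-4.19 ± 0.29, edgeR adjusted p 0.00122) and Mirg (-4.73 ± 0.37, 0.00141) they were Gm37899 (-4.37 ± 0.50, 0.00712), Rian (-3.74 ± 0.49, 0.0121), Meg3 (-3.23 ± 0.56, 0.0424) and 4 short transcripts. Meg3 lost its call without any 1 of the 4 libraries (log2 -3.80 to -2.22, adjusted p 0.0909 to 0.365) and without the control line (-3.19, 0.0540). Rian and Gm37899 lost theirs without dox clone 1, 5 or 6 (adjusted p 0.0888 to 0.129 for Rian and 0.0529 to 0.0844 for Gm37899), while B830012L14Rik and Mirg passed in each of these fits.

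Levels were also compared between clones of 1 kind, and no transcript of the region passed in the main fits. In these contrasts the untreated and dox-treated libraries of a clone served as its replicates. SE and p therefore do not measure the spread between clones. At an unadjusted p under 0.05 the shares over all tested transcripts of the region were near or below those of all transcripts. Most of the region's transcripts are short ones with few counts. Of the 6 long ones tested, 4 passed at that level between ESC clones 7 and 1, and 3 between ESC clones 6 and 5. In iPSM, 4 of the 6 did between clones 20 and 12, and 0 between clones 19 and 7. Rian was higher in ESC clone 7 than in clone 1 by 1.196 ± 0.17 on the log2 scale (edgeR adjusted p 0.0619), Meg3 by 0.99 (0.283) and Mirg by 0.79 (0.185), and 0 transcripts of the region passed (0.0756% of all did), with 1 by DESeq2. At an unadjusted p under 0.05 it was 7 of 46, beside 3024 of all 22500 transcripts. Between Clock/Bmal1DN clones 6 and 5, Meg3 differed by 0.87 and Dlk1 by 1.52 (adjusted p 0.775), again with 0 passing in the region (3 at an unadjusted p under 0.05, beside 1386 of all, and 0 by DESeq2) and 0.00444% overall. Without untreated clone 5, both passed and were larger, Dlk1 at 2.85 (adjusted p 0.0436) and Meg3 at 1.58 (0.0403). In iPSM, 0 passed between clones 20 and 12, where 1.78% of all transcripts did, or between clones 19 and 7, where 0.0363% did. At an unadjusted p under 0.05 these were 6 of 66, beside 3017 of all 24805, and 0 of 66, beside 490, and DESeq2 called 0 in both. Dlk1 was 0.79 ± 0.29 higher in clone 20 than in clone 12 (adjusted p 0.245).

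Marker levels of other cells differed between the ESC lines as well. Summed extraembryonic endoderm markers (6 genes) were 45.8 to 135.3 CPM in the Clock/Bmal1 ESC and 41.6 to 92.7 in the Clock/Bmal1DN ESC. They were 43.1 and 43.4 CPM in the control line. Neural markers (5 genes) summed to 181.3 to 317.7 CPM, 190.7 to 230.4 CPM, and 246.5 and 263.8 CPM in the same order. The part of such cells in the results was not tested. Summed fibroblast markers were 271 and 326 CPM in clone 1, 732 and 636 in clone 7, 282 and 303 in Clock/Bmal1DN clone 5, 1440 and 200 in clone 6, and 183 and 167 in the control line. The Clock/Bmal1 range lay inside the range of the other 6 libraries. Clones 1 and 5 had similar sums, while Mirg was at 4.003 and 3.34 CPM in the one and 104 and 113 CPM in the other. In clone 6 the fibroblast sum fell from 1440 to 200 CPM between its libraries with Mirg at 141 and 134 CPM. Between those same libraries Meg3 went from 26.0 to 54.02 CPM and Dlk1 from 0.964 to 2.60 CPM, and the part of other cells in these values was not tested. Summed presomitic mesoderm markers were 26.4 to 61.7 CPM in the Clock/Bmal1 ESC and 20.0 to 22.9 CPM in the Clock/Bmal1DN ESC, without overlap, and 34.1 and 34.5 CPM in the control line, inside the Clock/Bmal1 range. All were far below the iPSM sums, Msgn1 was at 0 in several of these libraries, and the part of this difference in the results was not tested.

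**Figure D3:**
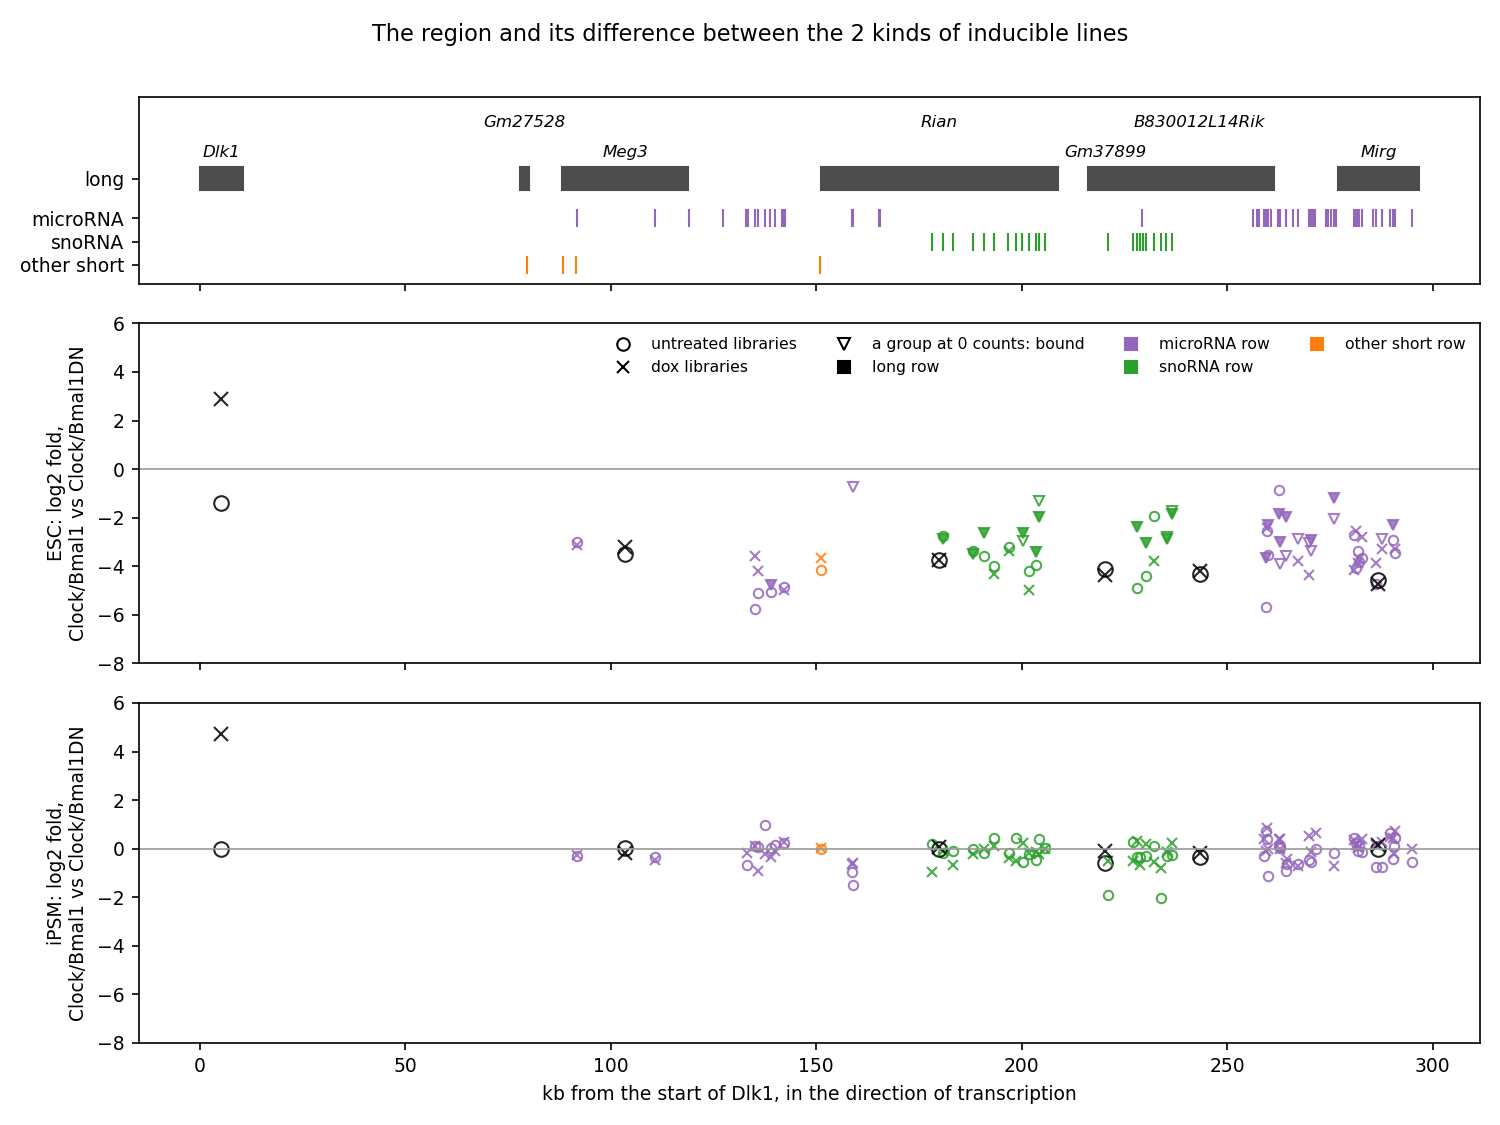
The region drawn to scale (top) and the log2 fold of Clock/Bmal1 against Clock/Bmal1DN lines for each tested transcript, at its distance in kb from the start of Dlk1, in ESC (middle) and iPSM (bottom); circles are untreated, crosses dox-treated, and triangles bounds where a group had 0 counts. In ESC the noncoding transcripts lie below 0 over the whole region (a transcript with 3 or fewer counts in both groups is left out). The ESC medians are -3.52 untreated and -3.31 with dox when bounds are used, and in iPSM the transcripts lie around 0. Some ESC transcripts may have passed the filter on low counts only through the libraries where they were high, so nothing is read from the medians.

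In iPSM the untreated Clock/Bmal1 and Clock/Bmal1DN lines did not differ in any transcript of the region by this test, and 0.0% of all transcripts were called. At an unadjusted p under 0.05, 1 of the 66 passed, with 1190 of all transcripts, and DESeq2 called 0 of the 66. Meg3 was at 0.02, Rian and Mirg at -0.02, B830012L14Rik at -0.33 ± 0.18 and Gm37899 at -0.59 ± 0.17 (edgeR adjusted p 0.842 for both). The median over the 66 was -0.13.

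Across the iPSM libraries Meg3 ran from 95.2 to 150 CPM, Rian from 713 to 1146, Gm37899 from 27.2 to 45.1, B830012L14Rik from 68.3 to 119 and Mirg from 107 to 162. The 3 kinds of line overlapped for Rian, Gm37899, B830012L14Rik and Mirg. For Meg3 the Clock/Bmal1 and Clock/Bmal1DN libraries overlapped, and both control libraries (150 and 132 CPM) lay above them. The gap between the constructs, -0.59 to 0.02 in iPSM for these 5 RNAs, was -4.56 to -3.51 in ESC, and the difference was tested in a fit of all 20 libraries. The signed untreated difference, Clock/Bmal1 minus Clock/Bmal1DN, was less negative in iPSM than in ESC by 4.51 ± 0.41 for Mirg (adjusted p 0.000155) and 3.96 ± 0.33 for B830012L14Rik (0.000113). The test passed for 6 transcripts (Rian, Gm37899, Gm24895 and Mir433 were the others), and these were the only 6 of 26689 tested (0.0225%). Meg3 was at 3.52 with an adjusted p of 0.0857. Mirg and B830012L14Rik passed without any 1 untreated library, and Rian and Gm37899 lost their calls in several such fits (adjusted p 0.0589 to 0.235).

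The 5 long noncoding RNAs were higher in untreated iPSM than in untreated ESC, averaged over the constructs. Meg3 was 15.6-fold higher (log2 3.96 ± 0.32, edgeR adjusted p 7.47e-08), Rian was higher by 2.67 ± 0.27 (6.84e-07), B830012L14Rik by 2.88 ± 0.17 (3.78e-09) and Mirg by 2.42 ± 0.21 (1.23e-07). Dlk1 did not pass (0.35 ± 0.48, adjusted p 0.554). With the control lines added to the mean of each cell type it was at 1.43 (adjusted p 0.0174), a value that rests on 1 control library per cell type, 6 counts of Dlk1 in ESC and the iPSM library that stood apart. Of the 66 tested transcripts of the region, 63 were called higher, where 31.3% of all transcripts were. Only 46 of the region passed the filter on low counts in the ESC fit, and those that passed through iPSM, the group where they are high, had to differ, so nothing is read from this count. Cell type and parental line (KY1.1 or E14TG2a) cannot be told apart here.

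This average joined unlike pairs of lines. In the Clock/Bmal1 lines Meg3 was 52.6-fold higher in iPSM and Mirg higher by 4.68 on the log2 scale. There 61 of 66 were called higher (22.8% of all), a count subject to the same filter, since 27 of the 66 had a group at 0 and 22 more had 1 to 3 counts in a group. In the Clock/Bmal1DN lines 10 of 66 were higher (24.5% of all), a share below that of all transcripts. There Meg3 was higher by 2.20 ± 0.41 (edgeR adjusted p 0.000476), Gm37899 by 1.88 ± 0.32 (0.000209) and B830012L14Rik by 0.90 ± 0.23 (0.00399). Rian was at 0.82 ± 0.36 (0.0727) and Mirg at 0.17 ± 0.27 (0.644), and the median over the 66 was 0.83. B830012L14Rik did not pass without untreated ESC clone 5 (0.67, adjusted p 0.0590) or iPSM clone 7 (0.70, 0.0566).

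Ratios between neighbouring transcripts also differed. On the rpkm scale, which divides by the whole gene body, Rian exceeded Meg3 by 4.77 to 12.2 times in ESC and by 2.95 to 5.07 times in iPSM. Mirg stood at 0.349 to 0.519 of Rian in the Clock/Bmal1 ESC libraries and at 0.693 to 0.931 in the other ESC libraries, with no overlap. In iPSM it stood at 0.374 to 0.492 of Rian, within the range of the Clock/Bmal1 ESC. B830012L14Rik was at 0.0966 to 0.213 of Rian in ESC and 0.122 to 0.213 in iPSM. No test was made of these ratios.

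**Figure D4:**
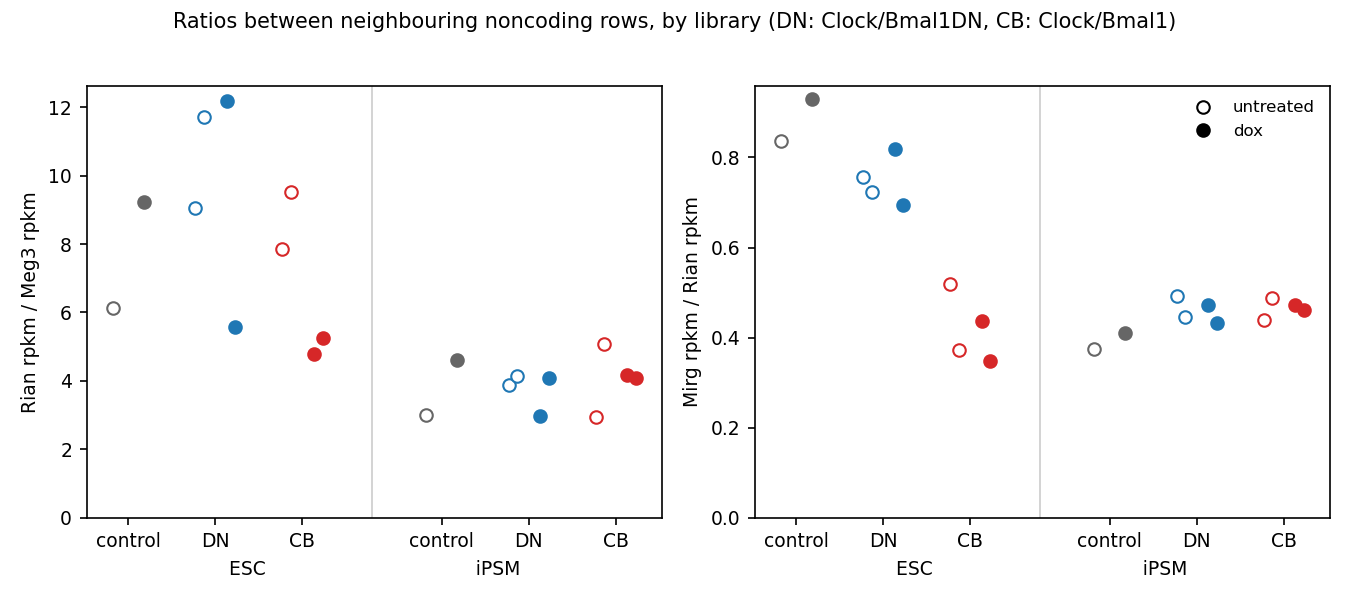
Ratio of rpkm of Rian to Meg3 (left) and of Mirg to Rian (right) in each library, by cell type and kind of line; open points are untreated and filled points dox-treated. The Mirg to Rian ratio is 0.693 or more in the control and Clock/Bmal1DN ESC and 0.519 or less in the Clock/Bmal1 ESC and all iPSM libraries.

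The summed short transcripts were low in the same ESC libraries as the long ones. Many lie inside a long transcript and may share its reads, so their sums are not separate evidence of the split. The microRNA sums were 0.988% to 1.73% of the long noncoding counts over all libraries, and the snoRNA sums 1.38% to 2.86%. The 59 microRNA transcripts summed to 0.313 to 1.05 CPM in the Clock/Bmal1 ESC libraries, 5.67 to 12.0 CPM in the other ESC libraries and 12.3 to 18.1 CPM in iPSM. The 23 snoRNA transcripts summed to 0.439 to 1.22 CPM, 7.24 to 16.9 CPM and 20.9 to 38.9 CPM. Neither sum overlapped between any of these 3 sets of libraries. Gm24895 alone held much of the snoRNA sum. It gave 21.5 of 30.5 counts in untreated and 8.5 of 17.5 in dox-treated Clock/Bmal1 ESC clone 1. In untreated libraries it gave 353.5 of 525 in Clock/Bmal1DN ESC clone 5 and 1300 of 1750.5 in iPSM clone 20. It lies inside an exon of Rian, whose reads it may share. With reads in 26 to 86 of the 93 transcripts of an ESC library and 88 to 92 of an iPSM library, most short transcripts rest on few counts.

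Gm24895 (chr12:109646129-109646202), a snoRNA inside an exon of every annotated Rian transcript, had the highest mean of the short transcripts, 11.97 CPM over all libraries. It was at 0.420 and 0.213 CPM in ESC clone 1 and 0.836 and 0.837 CPM in clone 7, at 3.92 and 5.80 CPM in the control line and between 8.84 and 11.3 CPM in the Clock/Bmal1DN clones. In iPSM it ran from 13.9 to 28.9 CPM. Its ESC difference in dox libraries was -4.33 ± 0.59 (edgeR adjusted p 0.0142), and in untreated ones -3.99 ± 0.57 (0.195).

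Mir433 (chr12:109591715-109591838), between Meg3 and Rian, was one of the 4 short transcripts called in dox-treated ESC (adjusted p 0.00850). It had 2 counts in untreated Clock/Bmal1 ESC against 62 in Clock/Bmal1DN ESC, a ratio of 38.5 with a 95% counting interval of 10.2 to 325. With dox it had 0 against 82 counts after rounding (0.5 as deposited in clone 7), at least 27.1-fold lower against 3 counts over the group, while the exact 95% counting limit of the ratio was 21.5. These intervals cover counting error only. The other called snoRNAs lie inside Rian, with 2 against 70 counts for Gm26922 (adjusted p 0.0424) and 0 against 34 for Gm24899 (0.0497).

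The read density of short transcripts relative to their hosts varied widely, below and above the host's own. Of 54 short transcripts inside a long one other than Gm27528, the median rpkm relative to the host was 0.488 in ESC and 0.478 in iPSM for microRNAs (29) and 0.737 and 0.634 for snoRNAs (23). Those inside B830012L14Rik had a median of 1.28 in ESC and 0.886 in iPSM, those inside Mirg 0.517 and 0.503, and those inside Rian 0.317 and 0.340. Gm24895 stood at 16.3 times Rian in ESC and 17.1 times in iPSM. Mir1906-1, inside an exon of Meg3, stood at 7.33 and 6.43 times Meg3. A long transcript's density is spread over its introns, so an exonic stretch can exceed it. Mir1906-1 shares its name stem with a copy on the X chromosome, Mir1906-2, which makes its count uncertain.

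**Figure D5:**
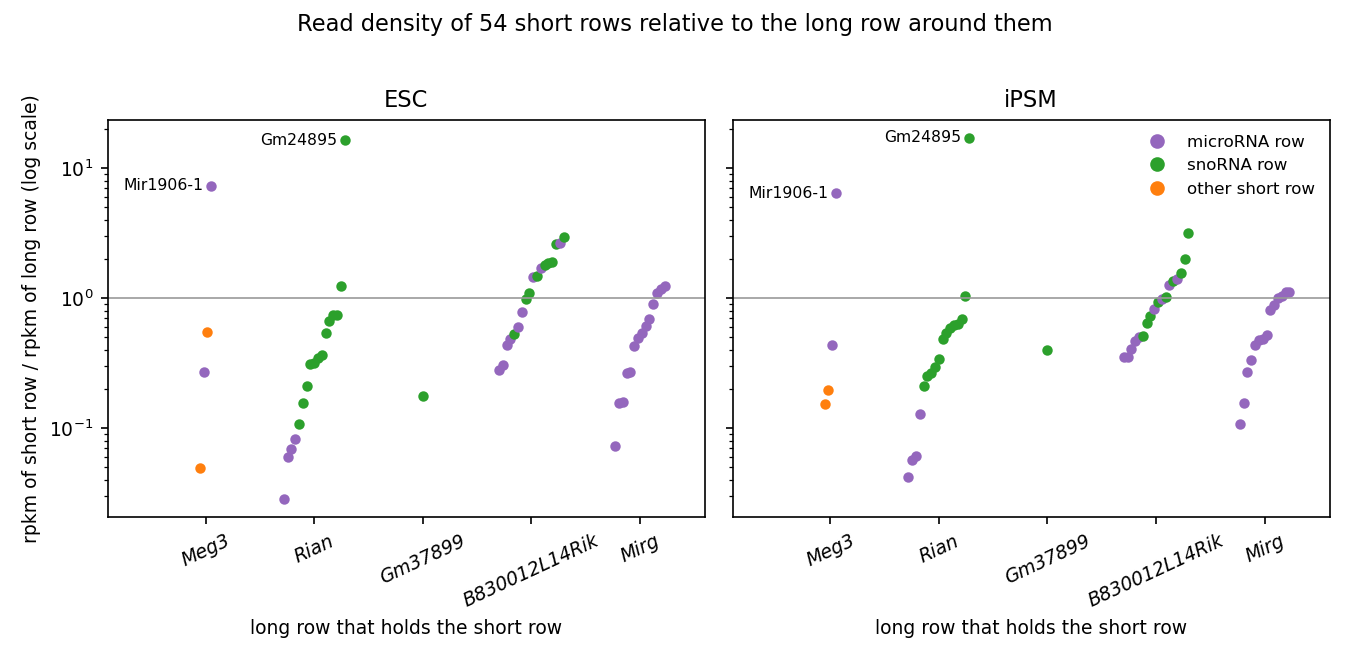
Mean rpkm of 54 short transcripts divided by the mean rpkm of the long transcript that holds them (log scale), in ESC (left) and iPSM (right), coloured by class. Gm24895, at 16.3 and 17.1 times Rian, and Mir1906-1, at 7.33 and 6.43 times Meg3, lie far above the rest in both cell types.

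Within iPSM, where the libraries were not split, the 5 long noncoding RNAs had pairwise correlations of log CPM from -0.26 to 0.84 (median 0.21, n = 10 libraries that share lines and depth). The correlation of Dlk1 with each of them lay between -0.36 and 0.03 there. These are descriptions of libraries that share clones. The transcripts most like Meg3 over the 10 iPSM libraries, among 15479 searched, were Daam2 (r = 0.93), Galnt16 (0.92), Nrp1 (0.91), Pcdhga7 (0.90) and Tshz1 (0.90). These r were picked as the highest of a large search over few libraries, so they do not measure a link with Meg3. By the same measure in ESC the transcripts most like Meg3 were Cpt1c, Alox5, B430305J03Rik, Rcan3 and Zkscan7. No r is given for them because the ESC libraries lie at separate levels. Cpt1c, the closest, ran only from 15.3 to 25.4 CPM there.

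Of 24 neighbouring transcripts outside the set, 3 were tested in ESC and 6 in iPSM. Gm34081 (chr12:109493529-109516740), on the minus strand between Dlk1 and Meg3, was at 0 and 0.0752 CPM in ESC clone 1 and at 0.0570 and 0 CPM in clone 7. It was at 1.68 and 0.417 CPM in the control line and at 1.14 to 1.61 CPM in the Clock/Bmal1DN clones, so the same 4 libraries were low with no overlap. It was the only neighbour called in dox-treated ESC (edgeR adjusted p 0.0376), on very few counts. Rtl1, the imprinted antisense gene of the region, averaged 0.0880 CPM in Clock/Bmal1 ESC, 0.156 in the other ESC and 0.238 in iPSM, and was higher in iPSM by 1.44 ± 0.59 (adjusted p 0.0452).

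A list of 18 genes covered imprint maintenance, DNA methylation and its removal (Tet1, Tet2 and Tet3) and chromatin (Ezh2 and Jarid2 among them). None was called for dox or for the untreated difference between constructs in either cell type. The median of that difference in ESC was 0.04. Of all transcripts, 0.422% (ESC) and 1.02% (iPSM) were called for Clock/Bmal1 dox, and at most 0.00889% in the other comparisons. Nothing is read from this count of 0. Between cell types 4 of the 18 were higher and 10 lower in iPSM, a count over genes of unlike function. Of all transcripts, 60.0% were called in either direction. Dnmt3l, a cofactor of DNA methyltransferases, was at -5.81 on the log2 scale, Dppa3 at -5.84, Trim28 at -2.50 and Dnmt3b at -2.24. Of 26 imprinted genes from other regions, none was called between untreated constructs in ESC, and their median there was 0.02. Only 0.00889% of all transcripts were called in that contrast, so nothing is read from this count either. Cdkn1c, a cell cycle inhibitor, was the only one called with Clock/Bmal1 induction, rising by 0.86 ± 0.16 in iPSM (edgeR adjusted p 0.0229). Of all transcripts 1.02% were called there. It was not called for dox in ESC, where it went from 36.8 to 100.2 CPM in clone 1 and from 61.5 to 121.4 CPM in clone 7. Among dox-treated ESC it was higher in Clock/Bmal1 than in Clock/Bmal1DN lines by 1.67 ± 0.26 (edgeR adjusted p 0.0279).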

How the data were processed

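Per the submitters' processing notes, bcl2fastq, STAR 2.7.2a and HOMER were used with mm10. The authors deposited 1 table per cell type with expected counts over gene bodies, in steps of 0.5 (18.1% of values end in 0.5), and rpkm scaled by gene body length with introns, per the file headers. Counts were rounded to whole numbers and fitted with edgeR 4.0.16 in R 4.3.3 (TMM, filterByExpr, quasi-likelihood test, two-sided). A cell type was fitted as 10 libraries in 6 groups with 4 residual degrees of freedom, clone contrasts had 2, and a joint fit of 20 libraries in 12 groups had 8. Benjamini-Hochberg adjustment ran over all tested transcripts with a threshold of 0.05. SE is the log2 value divided by the square root of F, and all adjusted p are from edgeR unless DESeq2 1.42.0 is named. The Clock/Bmal1 dox contrast of each cell type was also run on simulated data. That simulation held no clone differences and no low-count transcripts, and it covered no clone or construct contrast.

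Within 1 construct and cell type, libraries with the same clone number come from the same line, so the number pairs them. Their deviations correlated at 0.658 (ESC Clock/Bmal1), -0.097 (ESC Clock/Bmal1DN), 0.272 and 0.312 (iPSM). Nothing says that clones were grown as separate cultures on separate days, so p-values measure the spread between these samples. The members, lists and tests were chosen with earlier results of these data known. Named throughout are Dlk1, Meg3, Rian, Mirg and B830012L14Rik. Added were other region transcripts called in a contrast, limited to the 10 highest in CPM, up to 4 called genes per list, and the 5 transcripts most like Meg3 by Pearson's r of log2(CPM + 0.5). Contrasts among dox libraries, within 1 kind of line between cell types, and of the construct gap between cell types were chosen after seeing the data. Feature positions are the deposited ones, and 91 of the 93 match GENCODE vM21. Control lines have no replicate and were in no reported contrast, except an alternative that adds them to the means of untreated iPSM and ESC.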

Additional observations from a re-analysis of the deposited data

Results flagged for a closer look

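The effect of Clock/Bmal1 on Dlk1 in iPSM exceeded that of Clock/Bmal1DN by 4.70 on the log2 scale (SE 0.635, edgeR adjusted p 0.0124), with both Clock/Bmal1 clones rising and the Clock/Bmal1DN clones moving in opposite directions.

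The signed untreated difference between Clock/Bmal1 and Clock/Bmal1DN lines, far more negative in ESC than in iPSM, differed between the cell types, iPSM minus ESC on the log2 scale, for 6 transcripts of the region by edgeR. The values were 3.96 for B830012L14Rik (SE 0.334, adjusted p 0.000113), 4.51 for Mirg (0.409, 0.000155), 3.51 for Gm37899 (0.479, 0.0156), 4.42 for Gm24895 (0.604, 0.0156) and 3.70 for Rian (0.522, 0.0182). Mir433 was at 5.12 (0.720, 0.0213), a fitted value that rests on 2 counts in the Clock/Bmal1 ESC. ESC and iPSM lines are different clones from different parental lines, and the part of each was not tested.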

How the results depend on the processing

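Of 203 alternative counts of called transcripts, 164 stayed within 1.5 times the reported one. DESeq2 called 1 transcript of the region for the ESC effect difference, 7 for untreated constructs in ESC, 1 between ESC clones 7 and 1, and 5 between cell types in Clock/Bmal1DN lines. Without a filter on low counts the numbers were 1 for the ESC effect difference, 17 for untreated and 27 for dox-treated constructs in ESC, 5 between ESC clones 7 and 1, 1 between ESC clones 6 and 5, and 15 for the construct gap between cell types. A dox effect shared by all lines called 1 between ESC clones 7 and 1, Rian at 1.196 (edgeR adjusted p 0.0220). Leaving out 1 library gave 0 to 0 for Clock/Bmal1 dox in ESC and 1 to 2 in iPSM, 0 to 1 for the iPSM effect difference, 1 to 2 (untreated) and 2 to 6 (dox) for constructs in ESC, 0 to 1 for untreated constructs in iPSM, 0 to 2 between ESC clones 6 and 5, and 2 to 8 between iPSM clones 20 and 12. It gave 4 to 6 between cell types in Clock/Bmal1DN lines and 2 to 6 for the construct gap. Gene by gene, only Dlk1, Meg3, Rian, Gm37899, B830012L14Rik and Mirg were checked, and the named short transcripts were not. Among those checked, 6 uncalled values changed sign. Dlk1 with dox in Clock/Bmal1DN ESC was -1.338 without dox clone 6 (range without 1 library to 1.536). Gm37899 with dox in Clock/Bmal1 iPSM was -0.031 without dox clone 20 (to 0.375). Gm37899 between iPSM clones 20 and 12 was -0.057 and -0.06 without either dox library (to 0.414). Dlk1 between iPSM clones 19 and 7 was -0.276 without either dox library (to 1.344). Uncalled values within 1 SE of 0 were taken to have no direction. The cause of these changes was not tested. With the clone as a replicate block, Dlk1 was at 5.01 in ESC (adjusted p 0.006592) and 4.99 in iPSM (1.297e-06), the counts were 1 and 1, and the block changed no other call. No paired analysis was possible for contrasts between clones, constructs or cell types because their clones differ. Fits that leave an arm with 1 library assume that it varies like the others. Depth limits the short transcripts, since 34 of 59 microRNA and 9 of 23 snoRNA transcripts had too few counts to be tested in ESC.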

Other observations

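Other imprinted genes differed between clones of the same construct in iPSM. Each side of this contrast is a single clone with its untreated and dox-treated libraries, so SE and p do not measure the spread between clones. Between Clock/Bmal1 clones 20 and 12, 6 of 26 imprinted genes from other regions were called higher and 0 lower by edgeR, where 1.78% of all transcripts were called in either direction. H19, a maternally expressed noncoding RNA, was higher by 5.67 ± 0.23 on the log2 scale (adjusted p 6.6e-09), Nnat by 6.27 ± 0.27 (1.21e-08), Plagl1 by 4.42 ± 0.36 (1.74e-05) and Mest by 0.87 ± 0.16 (0.0123). H19 was at 0.834 and 0.911 CPM in clone 12, 51.8 and 37.1 in clone 20, 1.02 to 1.38 in the Clock/Bmal1DN clones, and 45.5 and 72.6 in the control line, so clone 20 stood with the control line. Nnat was at 0.379 and 0.422 CPM in clone 12, 38.8 and 23.7 in clone 20 and 13.5 and 21.3 in the control line. Meg3 did not follow this split, at 128 and 95.2 CPM in clone 12 and 102 and 115 CPM in clone 20. Of the listed genes for imprint maintenance, DNA methylation and chromatin, only Dnmt3l was called between these clones (log2 -1.23, edgeR adjusted p 0.0170).

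Between the cell types, 8 of the 26 imprinted genes of other regions were called higher and 8 lower, a share near the 60.0% of all transcripts called in either direction. Airn, the noncoding RNA of the Igf2r region, was higher in iPSM by 3.52 ± 0.29, Peg3 by 2.58 ± 0.15 and Kcnq1ot1 by 2.27 ± 0.17, while Snrpn was at -1.33 ± 0.12.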
